A study of Bos taurus with 16 samples.

Results

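Glutathione is the small thiol that cells use to bind reactive compounds and to reduce peroxides, and the genes described here make it, attach it to other molecules, or reduce quinones and ketones beside it. The 8 genes were *CTH*, *GCLC*, *GCLM*, *GSTA4*, *GSTM3*, *GSTP1*, *NQO1* and *20ALPHA-HSD*, out of 12012 genes with an exon region in the deposited table. They were chosen by name and role, with earlier results of these data known, and *GSTA4* had been named there for its difference with feed intake. Their values are therefore given as a description. All 8 passed the filter on low values, and all 8 symbols matched a bovine RefSeq gene.

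The RNA came from papillae clipped from the rumen wall of 16 crossbred steers aged 344 ± 48 days, with 1 library per animal. Steers were picked for the quadrant they occupied when gain was set against dry matter intake, which gave 4 animals each with high gain and high intake, high gain and low intake, low gain and high intake, and low gain and low intake. No animal received a treatment, and all ate 1 ration freely, of which 57.35% was corn, 30% distillers grains and 8% alfalfa. The groups are therefore selected extremes of the same kind of animal, and gain and intake were observed, not assigned.

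Cysteine is the limiting amino acid for glutathione, and it comes from the diet or from methionine through *CTH*. Glutamate-cysteine ligase, a dimer of *GCLC* and *GCLM*, joins cysteine to glutamate in the step that limits the rate of glutathione synthesis. The glutathione transferases then couple glutathione to reactive molecules, and many genes of this set are known targets of the transcription factor NRF2, encoded by *NFE2L2*. In the rumen, the papillae carry a stratified epithelium that faces the products of fermentation.

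Levels are mean read coverage per base in an exon region, which the authors scaled so that library totals lay between 591.1 and 595.9 Mb. Each gene is represented by its exon region with the highest mean coverage over the 16 libraries. An estimated 11.9 to 21.2 M reads stood behind a library. Of the 16 markers listed for stratified epithelium, 13 were in the table and all 13 had a mean level of at least 0.5, while 1 of 4 listed hepatocyte markers in the table did. In 5 libraries the first exons of long transcripts were poorly covered: the log2 ratio of first-exon to later-exon coverage over 1284 genes was -5.49 to -3.86 in them and -2.60 to -0.96 in the other 11. These 5 were 3 of the 4 steers with high gain and low intake, 1 with high gain and high intake, 1 with low gain and low intake, and none with low gain and high intake. High gain thus held 4 of the 5 against 1 for low gain, and high intake held 1 against 4 for low intake. Intake values without them are also given for the 8 genes and for several of the other genes named.

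By median level over the 16 libraries, the genes ran *GSTP1* (42.5), *GSTM3* (21.1), *NQO1* (19.6), *GSTA4* (12.0), *20ALPHA-HSD* (8.38), *GCLC* (4.81), *GCLM* (4.41) and *CTH* (2.8). All are coverage per base, but each is that of the best covered region, and regions of a gene can differ widely. *NQO1*, for example, had a mean of 21.1 in exon 2 and 2.34 over exons 3 and 4. The order is thus one of these regions, not of transcript abundance. *GSTA4* lay above *20ALPHA-HSD* in 16 of 16 libraries, and *20ALPHA-HSD* above *GCLC* in 15. *GCLC* lay above *GCLM* in 8 of 16, so the subunits of the ligase were not ordered, and *GSTP1*, *GSTM3* and *NQO1* changed places in 5 or 6 libraries per neighbouring pair.

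**Figure D1:**
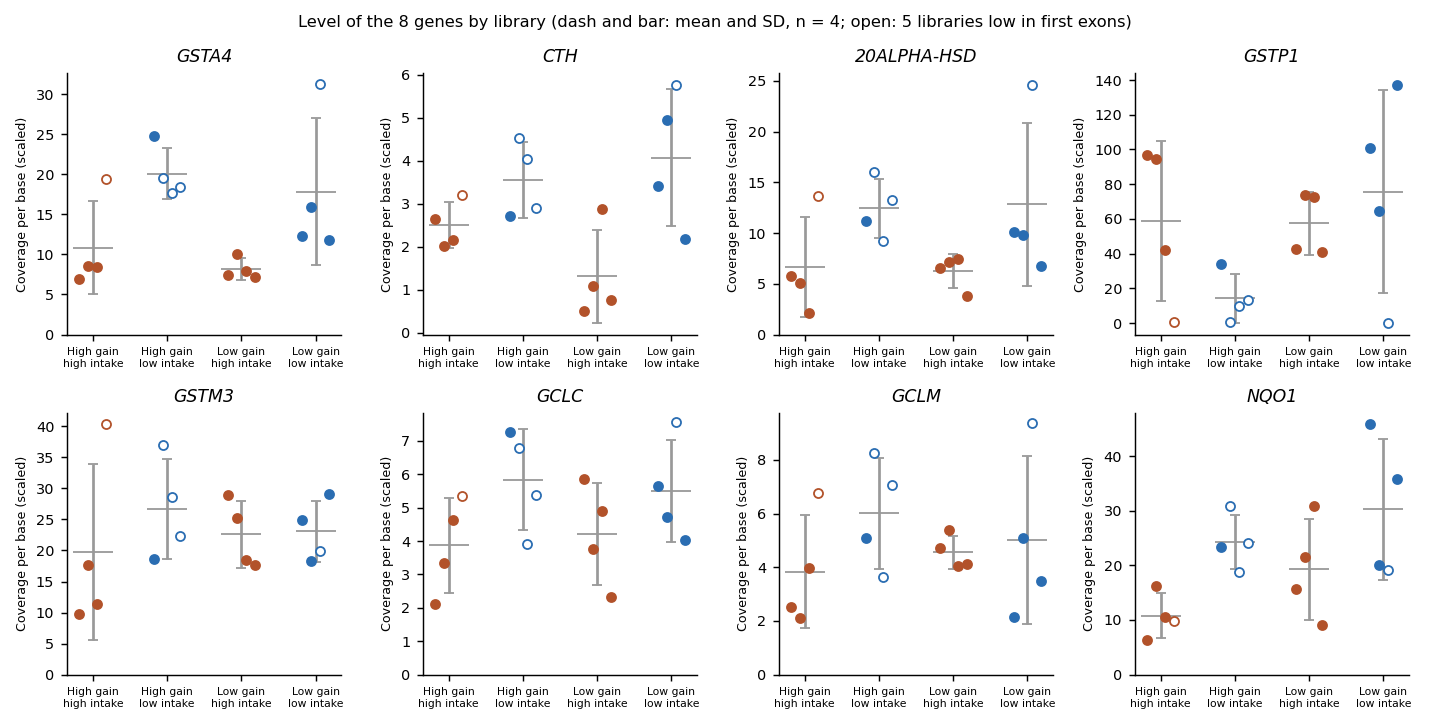
Level of each of the 8 genes in every library, as scaled coverage per base of its best covered exon region, in the 4 groups. Dashes and bars are the mean and SD of 4 animals, and open symbols are the 5 libraries with low first-exon coverage. *GSTA4*, *CTH*, *20ALPHA-HSD* and *NQO1* sit lower in high intake animals, while the open symbols of *GSTP1* lie at 0.22 to 13.2, under all filled ones.

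For feed intake, 4 of the 8 genes had an unadjusted p under 0.05 and none passed after adjustment (limma). *GSTA4*, *CTH*, *20ALPHA-HSD* and *NQO1* averaged lower in high intake steers by about 1 on the log2 scale, *GCLC* by 0.52, and *GCLM* and *GSTM3* by 0.33. *GSTP1* was higher on average, but its level followed the 5 libraries named above. None of the 8 passed the adjusted threshold of 0.05 in the limma fit, nor did any of the 9447 genes tested for intake (0.0%), of which 783 (8.29%) had an unadjusted p under 0.05. The estimate was negative for 7 of the 8 genes and for 50.4% of all tested genes. The ranges of high and low intake libraries overlapped for all 8, and did not for 0.0741% of tested genes.

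*CTH* encodes cystathionine gamma-lyase, which releases cysteine from cystathionine. Its region lies in exon 5 (chr3:75097671-75097767, UMD3.1). *CTH* had levels of 2.64, 2.01, 2.16 and 3.2 with high gain and high intake, and 0.51, 1.09, 2.89 and 0.76 with low gain and high intake. Among low intake steers, *CTH* had levels of 2.71, 4.53, 4.04 and 2.90 with high gain, and 3.42, 4.94, 5.76 and 2.18 with low gain. Every one of the 8 high intake libraries lay below the low intake median, though the ranges overlapped. *CTH* averaged 1.91 ± 1.01 with high intake and 3.81 ± 1.22 with low intake (SD, n = 8 each), a log2 difference of -1.11 (SE 0.31, limma). Without the 5 libraries *CTH* averaged 1.72 ± 0.938 with high intake (n = 7) and 3.31 ± 1.20 with low intake (n = 4), and the fitted difference of -0.90 had an unadjusted p of 0.0613 (limma). This is the most weakly covered of the 8 genes: the region of 97 bases rested on an estimated 0.99 to 15.7 reads per library (median 6.92).

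Over the 16 libraries, other regions of *CTH* had smaller differences. The 357-base region in its last exon (chr3:75082779-75083135) rested on an estimated 8.92 to 85.9 reads and averaged 2.59 with high intake against 2.91 with low intake, a log2 difference of -0.14. Its exon 9 region was higher with high intake, by 0.24. Averaged over all exon regions, the log2 difference of *CTH* was -0.21, so the value of -1.11 belongs to a single exon. Of the 4 regions with a mean of at least 1, only that of exon 5 was lower with high intake over the 11 libraries. Their log2 differences there ran from -1.05 to 0.94 when high and low intake libraries were compared directly. The file lists coverage for exons 1, 5 and 9 to 12 only.

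*GCLC* encodes the catalytic subunit of glutamate-cysteine ligase, and its region covers exons 13 to 16 (chr23:6961289-6965942). *GCLC* levels were 2.12, 3.35, 4.64 and 5.36 with high gain and high intake, and 5.87, 3.76, 4.89 and 2.32 with low gain and high intake. With low intake, *GCLC* levels were 7.26, 6.80, 3.92 and 5.37 with high gain, and 5.65, 4.72, 7.56 and 4.03 with low gain. High intake libraries lay below the low intake median in 7 of 8 cases, with broad overlap. *GCLC* averaged 4.04 ± 1.38 with high intake and 5.66 ± 1.42 with low intake (SD, n = 8 each), a log2 difference of -0.52 (SE 0.25, limma). Its unadjusted p in that fit was 0.0559, and it kept the negative sign without the 5 libraries (-0.70), where *GCLC* averaged 3.85 ± 1.38 with high intake (n = 7) and 5.42 ± 1.40 with low intake (n = 4).

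*GCLM*, the modifier subunit that eases feedback inhibition of the ligase, was measured in exon 6 (chr3:49753917-49754320). *GCLM* levels were 2.50, 2.09, 3.98 and 6.77 with high gain and high intake, and 4.70, 5.37, 4.05 and 4.12 with low gain and high intake. With low intake the levels of *GCLM* were 5.10, 8.25, 3.62 and 7.05 with high gain, and 2.14, 5.09, 9.36 and 3.47 with low gain. The 4 highest of the 16 came from the 5 libraries with low first-exon coverage. *GCLM* averaged 4.20 ± 1.49 with high intake and 5.51 ± 2.51 with low intake (SD, n = 8 each). Among the other 11 libraries *GCLM* averaged 3.83 with high intake (n = 7) and 3.95 with low intake (n = 4), a smaller gap than over all 16.

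*GSTA4* encodes an alpha-class transferase known for coupling glutathione to reactive aldehydes formed when lipids are oxidised. Its region is exon 7 (chr23:24963166-24964358). *GSTA4* levels were 6.89, 8.60, 8.38 and 19.4 with high gain and high intake, and 7.45, 10.1, 7.99 and 7.19 with low gain and high intake. *GSTA4* levels in low intake steers were 24.8, 19.5, 17.6 and 18.5 with high gain, and 12.3, 15.9, 31.3 and 11.8 with low gain. Of the high intake libraries 7 lay at 10.1 or below and every low intake library at 11.8 or above; the exception, at 19.4, was the high intake library among the 5. *GSTA4* averaged 9.50 ± 4.13 with high intake and 18.9 ± 6.47 with low intake (SD, n = 8 each). The log2 difference was -1.0 (SE 0.24, 95% interval -1.52 to -0.49, adjusted p 0.523, limma). Its unadjusted p ranked 11th among the 9447 genes. As *GSTA4* had been named for this difference in these data, nothing is read from the rank.

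*GSTA4* was higher in the 5 libraries as a group, with a mean of 21.3 against 11.03 in the other 11. Without them, the 7 remaining high intake libraries averaged 8.08 ± 1.08 and the 4 remaining low intake libraries 16.2 ± 6.0 (SD). The log2 difference was then -0.94 when these 7 and 4 libraries were compared directly. It was -1.16 (adjusted p 0.06, limma) in the fit, which weights the 4 group means equally although high gain with low intake then rests on 1 library. The ranges of these 7 and 4 libraries did not overlap. The share of all tested genes without overlap in this split was not counted. Since *GSTA4* had been named for its intake difference in these data, nothing is read from the separation.

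*GSTM3* encodes a mu-class transferase, measured over exons 3 to 7 (chr3:33769054-33770824). *GSTM3* levels were 9.70, 17.7, 11.3 and 40.4 with high gain and high intake, and 28.9, 25.3, 18.5 and 17.7 with low gain and high intake. Among low intake steers, *GSTM3* had levels of 18.6, 37.1, 28.6 and 22.3 with high gain, and 25.0, 18.3, 19.9 and 29.1 with low gain. The low intake range lay inside the high intake range. *GSTM3* averaged 21.2 ± 10.05 with high intake and 24.9 ± 6.47 with low intake (SD, n = 8 each), a difference within the spread. Over the other 11 libraries *GSTM3* averaged 18.4 ± 6.89 with high intake and 22.8 ± 5.22 with low intake.

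*GSTP1*, the pi-class transferase, had the highest median level of the 8 and was by far the most uneven. Its region covers exons 5 to 7 (chr29:46088320-46090048). *GSTP1* levels were 97.1, 94.7, 42.3 and 0.61 with high gain and high intake, and 42.6, 73.8, 72.6 and 40.9 with low gain and high intake. With low intake, *GSTP1* levels were 33.8, 0.40, 9.98 and 13.2 with high gain, and 100.6, 64.7, 0.22 and 137.1 with low gain. All 5 values under 14 belong to the 5 libraries with low first-exon coverage, whose median was 0.61 against 72.6 in the other 11 (33.8 to 137.1). *GSTP1* averaged 58.1 ± 32.5 with high intake and 45.0 ± 51.1 with low intake (SD, n = 8 each), a log2 difference of 1.5 (SE 1.38, limma). Among the 11 libraries *GSTP1* averaged 66.3 with high intake and 84.0 with low intake, a log2 difference of -0.25 between the 7 and 4 libraries. The fit over group means gave 0.16 (SE 0.33, limma) without the 5, so the sign over the 11 libraries depends on how the groups are weighted.

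*NQO1* encodes a quinone reductase that uses NADH or NADPH and is a textbook NRF2 target. Its region is exon 2 (chr18:36916419-36916586). *NQO1* levels were 6.35, 16.3, 10.47 and 9.82 with high gain and high intake, and 15.7, 21.5, 30.8 and 9.0 with low gain and high intake. With low intake the levels of *NQO1* were 23.3, 30.8, 18.8 and 24.2 with high gain, and 45.9, 20, 19.2 and 35.8 with low gain. Low intake libraries all reached 18.8 or more, and 6 of 8 high intake libraries stayed at 16.3 or below. *NQO1* averaged 15.0 ± 8.04 with high intake and 27.2 ± 9.62 with low intake (SD, n = 8 each). The log2 difference was -0.95 (SE 0.28, 95% interval -1.55 to -0.36, adjusted p 0.528, limma).

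*NQO1* had close means in the 5 libraries (20.5) and the other 11 (21.4). Without them *NQO1* averaged 15.7 ± 8.39 in 7 high intake libraries and 31.3 ± 11.9 in 4 low intake libraries (SD), and the fitted difference was -1.02. The high intake steer at 30.8 and the low intake steers at 20 and above still overlapped.

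*20ALPHA-HSD* encodes a bovine aldo-keto reductase that inactivates progesterone by reducing it. Its region is exon 2 (chr13:44139752-44139912). *20ALPHA-HSD* levels were 5.80, 5.10, 2.14 and 13.6 with high gain and high intake, and 6.61, 7.12, 7.49 and 3.84 with low gain and high intake. *20ALPHA-HSD* levels in low intake steers were 11.2, 16.0, 9.26 and 13.3 with high gain, and 10.1, 9.85, 24.6 and 6.75 with low gain. High intake libraries lay below the low intake median in 7 of 8 cases, and the exception at 13.6 was again the high intake library among the 5. *20ALPHA-HSD* averaged 6.46 ± 3.39 with high intake and 12.6 ± 5.58 with low intake (SD, n = 8 each), a log2 difference of -1.02 (SE 0.34, adjusted p 0.528, limma). Among the 11 libraries it averaged 5.44 ± 1.92 with high intake (n = 7) and 9.49 ± 1.92 with low intake (n = 4).

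Together, 4 of the 8 genes were lower with high intake at an unadjusted p under 0.05 and none was higher, while 5.82% of all genes tested were lower and 2.47% higher by that rule. The median log2 difference of the 8 was -0.74, against -0.01 over all tested genes. Since the set was assembled with this contrast in view, nothing is read from that share. In bulk papillae, fewer cells of a type and less RNA per cell cannot be told apart.

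Markers of other cell types also differed in level with intake, none past the adjusted threshold. At an unadjusted p under 0.05 (limma), 5.82% of all tested genes were lower with high intake and 2.47% higher. Of the 8 fibroblast and matrix markers, 5 were lower with high intake at an unadjusted p under 0.05 (limma), and their summed level was 203 to 419 in high intake libraries and 242 to 1123 in low intake libraries. Of 7 endothelial markers 4 were lower (summed level 8.76 to 25.8 with high intake and 9.30 to 29.0 with low intake), and of 4 ketogenesis genes 2 were lower (474 to 1072 with high intake and 578 to 1683 with low intake). The 13 epithelial markers summed to 3184 to 6440 with high intake and 1405 to 5828 with low intake, with 1 of them higher and none lower. In the 5 libraries with low first-exon coverage *KRT5*, *KRT14* and *DSP* averaged 98.5, 230 and 95.8, against 232, 466 and 172 in the other 11. Without the 5 they averaged 198, 476 and 172 with high intake, and 291, 448 and 172 with low intake. Summed levels without the 5 are not given. Of 7 smooth muscle markers 1 was lower (summed level 3.0 to 33.04 with high intake and 5.31 to 66.8 with low intake), and of 5 leukocyte markers tested 1 was higher (30.2 to 50.6 with high intake and 16.1 to 39.8 with low intake). No marker in the table for fibroblasts, endothelium, ketogenesis, epithelium or smooth muscle had a mean under 0.5, while *CD79A* and *ITGAM* of the leukocyte list did. Their part in the values of the 8 genes was not tested.

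**Figure D2:**
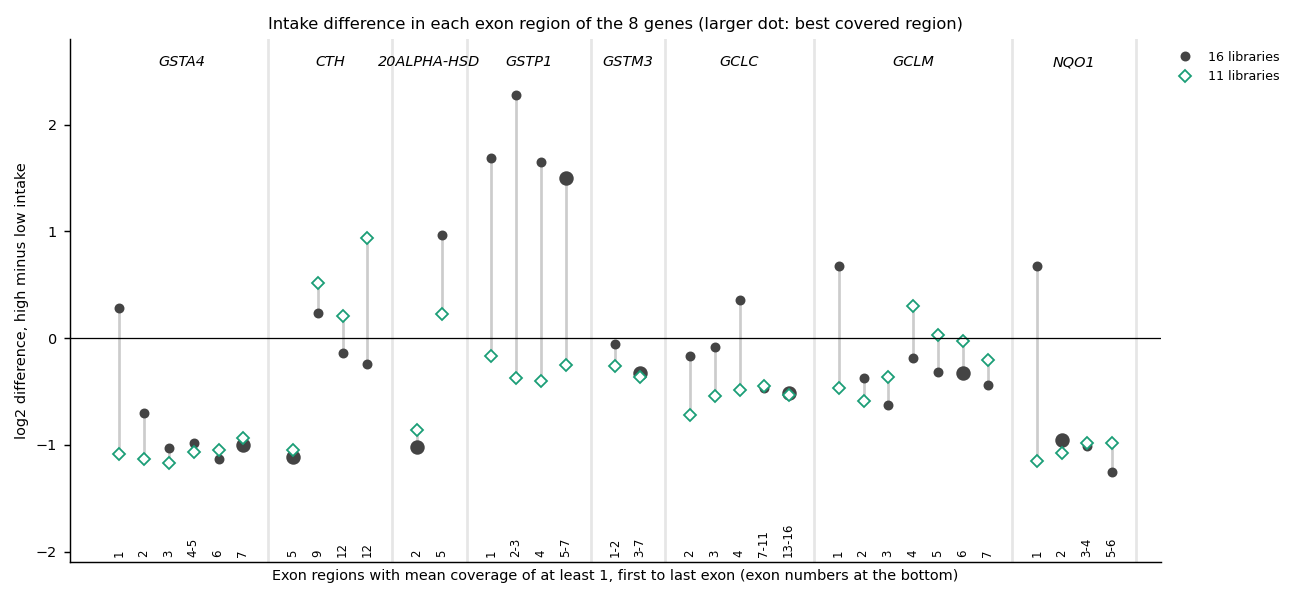
Log2 difference in level between high and low intake (high minus low) for each exon region with a mean coverage of at least 1 in the 8 genes, over all 16 libraries (black) and over the 11 without low first-exon coverage (green). Larger black dots mark the best covered region. The regions of *GSTA4* and *NQO1* lie between -1.17 and -0.94 in the 11 libraries, while those of *GSTP1* are positive over 16 libraries and negative over the 11.

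Exon by exon, differences are given on the log2(level + 0.1) scale and compare the mean of all high intake with that of all low intake libraries. In *GSTA4*, 5 of 6 regions were lower with high intake over 16 libraries. The exon 1 region had a log2 difference of 0.28, although its mean level was 1.08 with high intake and 1.56 with low intake, and 3 of its values were at 0. Over the 11 libraries all 6 *GSTA4* regions were lower, with log2 differences of -1.17 to -0.94. In *NQO1*, 3 of 4 regions were lower over 16 libraries and all 4 over the 11, with log2 differences of -1.15 to -0.98 over the 11. Its exon 1 region likewise had a log2 difference of 0.68 over 16 libraries with means of 5.48 in high intake and 6.99 in low intake, and 2 values at 0. The regions of a gene share the libraries and are not replicates.

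The other genes were less uniform. *GCLC* had 5 regions with a mean of at least 1, of which 4 were lower with high intake over 16 libraries and 5 over the 11 (-0.72 to -0.45). *GCLM* had 7, with 6 lower over 16 libraries and 5 over the 11 (-0.59 to 0.30). *CTH* had 4, with 3 lower over 16 libraries and 1 over the 11 (-1.05 to 0.94). *GSTM3* had 2 regions, both lower in both sets. *20ALPHA-HSD* also had 2, of which exon 2 was lower and exon 5 higher in both sets. That exon 5 region reached a mean of 1 only through 1 high intake library at 44.6. It had 10 of 16 values at 0 and no other above 1.69, so nothing is read from its direction. All 4 *GSTP1* regions were higher with high intake over 16 libraries (1.5 to 2.28) and lower over the 11 (-0.40 to -0.17) when the 7 high intake libraries were compared with the 4 low intake ones. The fit that weights the 4 groups equally kept its best region positive without the 5, at 0.16.

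The 5 libraries were set apart by first-exon coverage over many genes, so the exon 1 levels of the members in them are given as a description. *GSTP1* exon 1 was at 0 in all 5 libraries with low first-exon coverage and at 1.67 to 4.04 in the other 11. *NQO1* exon 1 had 0 to 2.77 in the 5 and 1.74 to 19.9 in the 11, *GCLM* exon 1 had 0 to 0.30 in the 5 and 0.40 to 4.28 in the 11, and *GSTA4* exon 1 had 0 to 0.51 in the 5 and 0.29 to 4.07 in the 11. The ranges were separate for *GSTP1* and *GCLM* and overlapped for *NQO1* and *GSTA4*. *GSTM3*, whose first region joins exons 1 and 2, had 1.64 to 5.99 in the 5 and 2.04 to 6.92 in the 11, which also overlap.

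**Figure D3:**
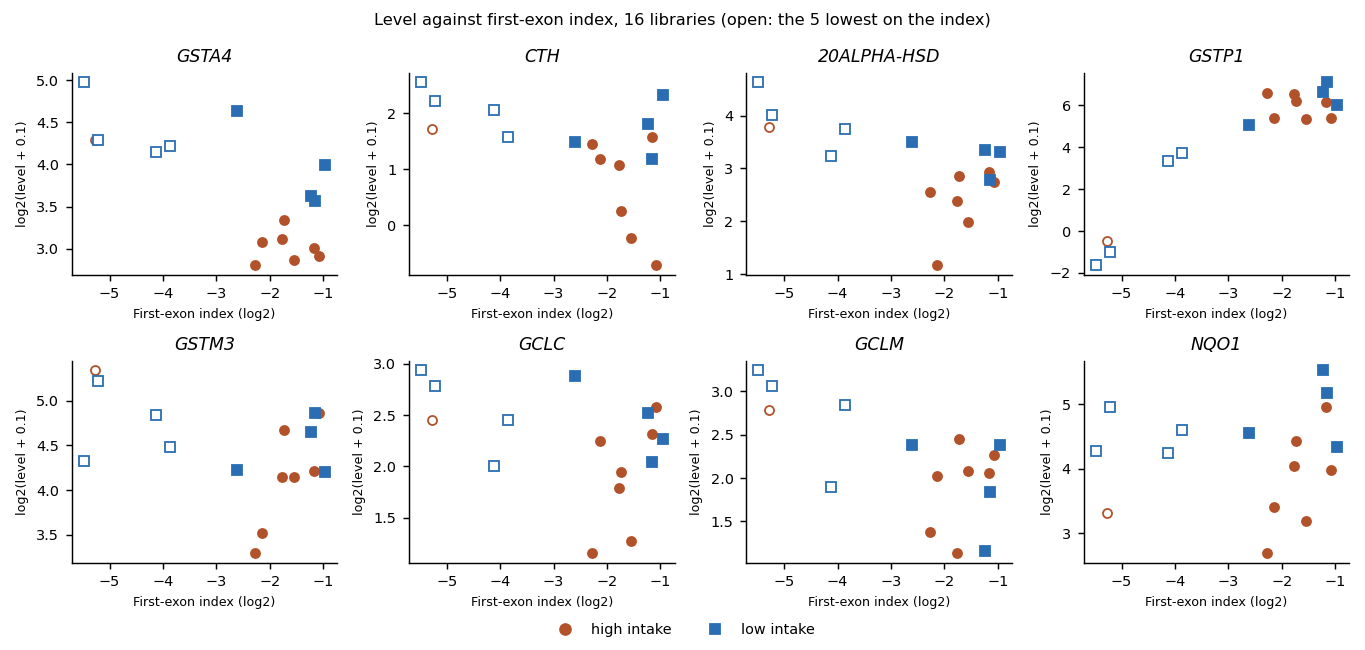
Level of each gene, as log2(level + 0.1), against the first-exon index of the library (log2 first-exon over later-exon coverage), for high intake (orange circles) and low intake (blue squares) libraries. Open symbols are the 5 libraries lowest on the index. *GSTP1* climbs with the index (r = 0.94), *GSTA4* declines (r = -0.73) and *NQO1*, measured in exon 2, shows little slope (r = 0.10).

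Across the 16 libraries the first-exon index had a Pearson correlation with log2 level of 0.94 for *GSTP1*, -0.73 for *GSTA4*, -0.66 for *GCLM*, -0.65 for *20ALPHA-HSD*, -0.53 for *CTH*, -0.41 for *GCLC*, -0.38 for *GSTM3* and 0.10 for *NQO1*. These are descriptions: the libraries fall into separate clusters on the index, and both quantities come from the same libraries. For *GSTP1* the low level in the 5 libraries was not limited to the 5-prime end, since its best region covers the last 3 exons. The value for *NQO1* is that of exon 2. Its region of exons 5 and 6 had a median of 25.0 in the 5 libraries and 13.5 in the other 11.

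*20ALPHA-HSD* needs care as a measurement. Of its 10 exon regions, exon 2 had a mean of 9.56 and an estimated 9.71 to 97.9 reads per library. The 58-base region of exon 5 had 44.6 in a single high gain, high intake library, the one among the 5, and at most 1.69 in any other. The remaining 8 regions averaged 0.05 to 0.30. Of the 10 regions, 2 were lower with high intake over the 16 libraries: exon 2 and a weakly covered region of exon 7. The others had positive log2 differences, most of them at low coverage. The level of this gene thus stands for 1 exon. It belongs to a family of close relatives on chromosome 13, and reads shared between copies could be assigned to any of them.

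**Figure D4:**
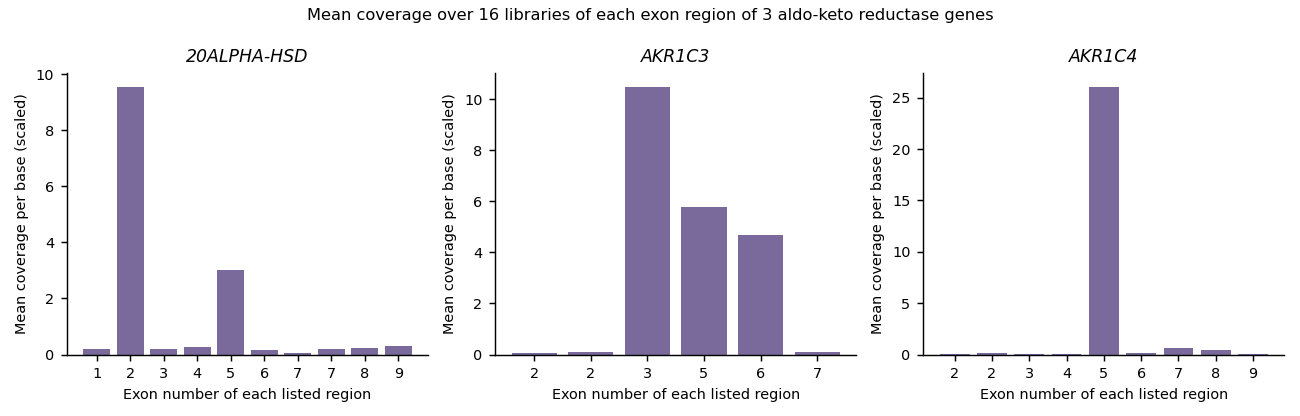
Mean scaled coverage per base over the 16 libraries in each listed exon region of *20ALPHA-HSD*, *AKR1C3* and *AKR1C4*, by exon number. In each gene only 1 to 3 regions exceed 1: exons 2 and 5 of *20ALPHA-HSD*, exons 3, 5 and 6 of *AKR1C3*, and exon 5 of *AKR1C4*.

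The relatives showed the same patchiness. *AKR1C3*, an aldo-keto reductase of steroids and prostaglandins, was covered in exons 3, 5 and 6 (means 10.49, 5.79 and 4.68). It averaged 8.04 ± 2.56 with high intake and 12.9 ± 4.0 with low intake (SD, n = 8 each), a log2 difference of -0.68 (SE 0.24, limma). Among the 11 libraries it had 8.28 ± 2.67 with high intake and 10.8 ± 3.88 with low intake. *AKR1C4* was covered in exon 5 (mean 26.1) and at most 0.63 elsewhere, and averaged 21.8 ± 21.6 with high intake and 30.4 ± 30.2 with low intake. Across 16 libraries the log2 level of *20ALPHA-HSD* had r = 0.31 with *AKR1C3* and r = 0.01 with *AKR1C4*.

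Among transferases close to the members, the intake differences were small beside their spread. *GSTA3*, another alpha-class gene, averaged 84.4 ± 38.3 with high intake and 89.6 ± 62.0 with low intake (SD, n = 8 each). *GSTA2* averaged 3.92 ± 3.65 with high intake and 3.25 ± 3.08 with low intake. *GSTM1* averaged 21.5 ± 9.05 with high intake and 22.1 ± 3.66 with low intake. The log2 differences were 0.14, 0.19 and -0.15, against -1.0 for *GSTA4* and -0.33 for *GSTM3*; the differences between genes were not tested. *GSTA2* had 3.58 with high intake and 3.75 with low intake without the 5 libraries. *GSTA3* averaged 63.0 in the 5 and 97.9 in the other 11. Without the 5 it averaged 89.2 ± 38.6 with high intake and 113 ± 68.3 with low intake (SD). *GSTM1* then averaged 21.0 with high intake and 21.8 with low intake. *MGST1*, a membrane-bound transferase, averaged 67.8 ± 16.8 with high intake and 102.6 ± 24.8 with low intake, a log2 difference of -0.60 (SE 0.20, unadjusted p 0.00909, adjusted above 0.05, limma).

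Neither regulator of the pathway had an unadjusted p under 0.05 for intake (limma). *NFE2L2*, which encodes NRF2, averaged 13.3 ± 4.51 with high intake and 16.2 ± 5.0 with low intake, and *KEAP1*, the adaptor that marks NRF2 for degradation, 4.28 ± 1.36 with high intake and 3.34 ± 2.11 with low intake (SD, n = 8 each). *KEAP1* averaged 1.54 in the 5 libraries and 4.84 in the other 11, and without the 5 its order turned, to 4.72 ± 0.547 with high intake and 5.05 ± 0.852 with low intake. *CBS*, which makes the cystathionine that *CTH* cleaves, averaged 12.0 ± 2.51 with high intake and 9.69 ± 2.63 with low intake. Its log2 difference was 0.33 (SE 0.21, limma) and it was not called. In the 11 libraries *CBS* averaged 12.3 ± 2.51 with high intake and 11.6 ± 1.41 with low intake.

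For gain, the 8 genes had group means closer to each other or within the spread. No member had an unadjusted p under 0.05 in limma, where 5.29% of all tested genes did, and none of the 9447 genes passed the adjusted threshold (0.0%; smallest adjusted p 0.715, and 500 genes at an unadjusted p under 0.05). *20ALPHA-HSD* averaged 9.56 ± 4.85 with high gain and 9.55 ± 6.40 with low gain (SD, n = 8 each), and *GCLC* 4.85 ± 1.72 with high gain and 4.85 ± 1.57 with low gain. *GCLM* averaged 4.92 ± 2.25 with high gain and 4.79 ± 2.11 with low gain. These 3 genes were level between the gain groups, though their intervals still allow log2 changes of 0.5 or more either way.

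For the other 5 genes the group means lay within the spread. *GSTA4* averaged 15.5 ± 6.58 with high gain and 13.0 ± 7.95 with low gain, and *CTH* 3.02 ± 0.876 with high gain and 2.69 ± 1.94 with low gain (SD, n = 8 each). *NQO1* averaged 17.5 ± 8.37 with high gain and 24.7 ± 12.0 with low gain, a log2 difference of -0.51 (SE 0.28, unadjusted p 0.0906, limma). *GSTM3* averaged 23.2 ± 11.3 with high gain and 22.8 ± 4.80 with low gain. *GSTP1* averaged 36.5 ± 39.5 with high gain and 66.6 ± 41.2 with low gain, a log2 difference of -1.51 (SE 1.38, limma), and 4 of the 5 libraries with low *GSTP1* are high gain. With the first-exon index as a covariate its gain difference became 1.65 (adjusted p 0.0337, limma). That setting called 918 of the 9447 tested genes for gain, 797 of them higher. The level of *GSTP1* itself had r = 0.94 with the index. Its gain difference stayed negative in 26 of 27 alternatives and turned only with the covariate.

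The steers with high gain and low intake set against those with low gain and high intake come from opposite quadrants of the selection. *GSTA4* averaged 20.1 ± 3.2 in high gain, low intake steers and 8.18 ± 1.31 in low gain, high intake steers (SD, n = 4 each), a log2 difference of 1.29 (SE 0.34, adjusted p 0.369, limma). *CTH* averaged 3.55 ± 0.881 in high gain, low intake steers and 1.31 ± 1.08 in low gain, high intake steers, a log2 difference of 1.61 (SE 0.44, adjusted p 0.369, limma). *20ALPHA-HSD* averaged 12.5 ± 2.90 in high gain, low intake steers against 6.26 ± 1.66 in low gain, high intake steers, and *GSTP1* 14.3 ± 14.1 in high gain, low intake steers against 57.5 ± 18.2 in low gain, high intake steers. *GCLC*, *NQO1*, *GCLM* and *GSTM3* had log2 differences of 0.50, 0.45, 0.33 and 0.22, none with an unadjusted p under 0.05 (limma).

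The 2 groups did not overlap for *GSTA4* and *20ALPHA-HSD*, both higher in high gain, low intake steers, nor for *GSTP1*, which was lower. That is 3 of 8 genes, and 29.0% of all tested genes had groups without overlap in this comparison. By an unadjusted p under 0.05 (limma), 2 of the 8 were higher and none lower, against 4.11% higher and 9.36% lower of all tested genes. No gene passed the adjusted threshold (0.0%; smallest adjusted p 0.369), and 1272 genes (13.5%) had an unadjusted p under 0.05. The comparison places 3 of the 5 libraries in high gain, low intake and none in the other group, so group and first-exon coverage cannot be told apart. The remaining high gain, low intake library had *GSTA4* at 24.8, above all 4 low gain, high intake libraries, and *GSTP1* at 33.8, below all 4. Its first-exon index of -2.60 was the lowest of the other 11 libraries, against -1.73 to -1.08 with low gain and high intake. This library thus does not separate group from first-exon coverage either.

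Whether the intake difference itself changed with gain was tested by the interaction. No member had an unadjusted p under 0.05 in limma, where 0.519% of all tested genes (49) did, and none passed after adjustment (0.0%). *CTH* had the largest estimate of the 8, 1.27 (SE 0.63, unadjusted p 0.0624): its means were 2.50 with high intake against 3.55 with low intake in high gain steers, and 1.31 with high intake against 4.08 with low intake in low gain steers. For *GSTA4* the estimate was 0.01 (SE 0.48), with a 95% interval of -1.03 to 1.04. Without the 5 libraries it was -0.93 (SE 0.34), and *GSTA4*, *GCLM* and *GSTP1* had an unadjusted p under 0.05 (limma), where 9.62% of all tested genes did; high gain with low intake is then a single library, assumed to vary like the other groups.

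The wider pathway was taken from 8 lists of 173 genes, of which 136 were tested. For intake, 2 of the 136 were higher and 16 lower at an unadjusted p under 0.05 (limma), and none passed the adjusted threshold. The 16 are 11.8% of the lists' tested genes, against 5.82% lower among all tested genes. The median log2 difference of the 136 was 0.11, against -0.01 over all tested genes. Without the 5 libraries 3 were higher and 21 lower, and the median was -0.24 against -0.13 over all tested genes, so the sign of the median depends on those libraries.

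**Figure D5:**
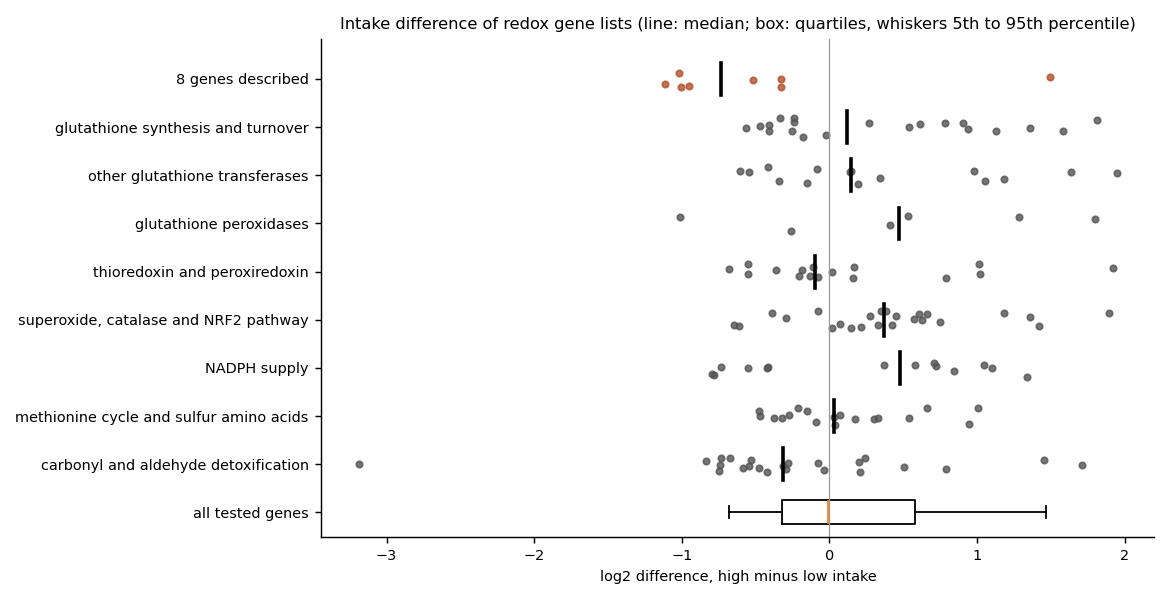
Log2 difference in level between high and low intake (high minus low) for the 8 genes described and for each tested gene of 8 redox gene lists, with the median as a black line. The box shows all 9447 tested genes (median -0.01). The 8 genes have a median of -0.74, and the lists' medians run between -0.32 and 0.47.

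Of the 16 lower genes, 6 were in the carbonyl and aldehyde list, with 23 genes tested and none higher (median -0.32). They were *ADH5*, which clears formaldehyde bound to glutathione, *ADH6*, *AKR1C3*, *ALDH1A1*, *ALDH7A1* and *PTGR2*. *ALDH1A1*, an aldehyde dehydrogenase of retinal and lipid aldehydes, averaged 246 ± 78.2 with high intake and 395 ± 190 with low intake (SD, n = 8 each). Its mean was 519 in the 5 libraries and 231 in the other 11, and without the 5 it averaged 219 ± 16.2 with high intake and 251 ± 60.2 with low intake. *PTGR1*, a reductase of reactive unsaturated carbonyls, averaged 40.1 ± 15.8 with high intake and 50.8 ± 25.1 with low intake and did not pass. Without the 5 libraries the order turned, to 38.1 ± 16.0 with high intake and 34.5 ± 6.04 with low intake.

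NADPH supply had 3 of 14 genes lower (*ME2*, *IDH1* and *NNT*) and none higher, with a list median of 0.47. *IDH1*, the cytosolic isocitrate dehydrogenase that makes NADPH, averaged 175 ± 96.0 with high intake and 305 ± 156 with low intake (SD, n = 8 each), a log2 difference of -0.78. *IDH1* averaged 401 in the 5 libraries, and without them 141 ± 7.25 with high intake and 213 ± 69.1 with low intake. *ME1*, the cytosolic malic enzyme, averaged 66.2 ± 25.3 with high intake and 84.1 ± 23.4 with low intake. The thioredoxin and peroxiredoxin list had 3 of 16 lower (*PRDX3*, *TXN* and *TXNDC17*) and none higher, with a median of -0.10. *PRDX6* had the highest level of the genes named here and averaged 3013 ± 915 with high intake and 2702 ± 842 with low intake. *PRDX1* averaged 215 ± 59.2 with high intake and 242 ± 55.6 with low intake.

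Glutathione synthesis and turnover had 1 of 20 genes lower (*ESD*) and none higher, with a median of 0.12. *GLRX*, a glutaredoxin, averaged 275 ± 75.8 with high intake and 241 ± 87.2 with low intake, and 274 with high intake against 297 with low intake without the 5 libraries. *GSR*, which regenerates reduced glutathione, averaged 108 ± 31.3 with high intake and 110.4 ± 32.1 with low intake (SD, n = 8 each), and 97.4 with high intake against 96.4 with low intake without the 5. Both symbols have exon regions on more than 1 chromosome in the table, so their levels are uncertain. The other glutathione transferases had 1 of 15 lower (*MGST1*) and 1 higher (*PTGES*), with a median of 0.14, which became -0.26 without the 5 libraries. The peroxidases had 1 of 6 lower (*GPX8*) and 1 higher (*GPX3*), with a median of 0.47.

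*GPX1* and *GPX4* reduce hydrogen peroxide and lipid peroxides. *GPX1* averaged 148 ± 56.0 with high intake and 109.7 ± 110.7 with low intake, and *GPX4* averaged 40.1 ± 20.7 with high intake and 36.9 ± 25.0 with low intake. Both orders turned without the 5 libraries: *GPX1* averaged 167 ± 19.9 with high intake and 197 ± 89.9 with low intake, and *GPX4* averaged 44.4 with high intake and 57.3 with low intake. *GPX1* averaged 21.8 in the 5 libraries and 178 in the other 11. None of the 24 superoxide, catalase and NRF2 pathway genes had an unadjusted p under 0.05 for intake (median 0.37). In that list the ferritin chains *FTH1* and *FTL* averaged 1343 ± 496 and 129.9 ± 49.3 with high intake, against 1343 ± 654 and 141 ± 69.7 with low intake; without the 5 libraries *FTH1* averaged 1450 with high intake and 1731 with low intake. The methionine and sulfur amino acid list had 1 of 18 lower (*AHCYL1*) and none higher. Its most covered genes were *SQRDL*, which oxidises hydrogen sulfide, with 176 ± 44.9 in high intake and 207 ± 22.7 in low intake, and *AHCYL2*, with 123 ± 30.6 in high intake and 152 ± 24.0 in low intake.

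For gain, 1 of the 136 pathway genes was higher (*GGCT*, which turns gamma-glutamyl amino acids over) and 7 lower at an unadjusted p under 0.05 (limma). Together they are 5.88% of the lists' tested genes, against 5.29% of all tested genes. The median was -0.10 against -0.04 over all tested genes. For high gain with low intake against low gain with high intake, 10 were higher (7.35%) and 12 lower (8.82%). Of all tested genes 4.11% were higher and 9.36% lower in that comparison. The list median was -0.20 against 0.01.

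The genes whose log2 levels across the 16 libraries were most like those of each member are given as a description, since all share the libraries and the split into 5 and 11. *GSTA4* was closest to *CAV2* (r = 0.92, rho = 0.93), *IDH1* (r = 0.92, rho = 0.84) and *DFFA* (r = 0.92, rho = 0.85), and with *IDH1* the r over the 11 libraries was again 0.92. *20ALPHA-HSD* was closest to *FAM115A*, *PHYH* and *SKAP2* (r = 0.96, 0.96 and 0.95, with 0.92, 0.93 and 0.91 over the 11). *GCLC* had *DCUN1D5* and *C24H18orf32* among its closest genes (r = 0.91 each), and *GCLM* was closest to *ADSS*, *FAM151B* and *ZNF197* (r = 0.91, 0.91 and 0.90).

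*GSTP1* had its nearest genes at r = 0.99 (*ARFGAP1*, *PRPF19* and *MRPL38*), with 0.86, 0.78 and 0.86 over the 11 libraries. *CTH* was closest to *RMND1*, *SERPINB2* and *IPO11* (r = 0.88, 0.86 and 0.84), *GSTM3* to *CRYZL1*, *BAMBI* and *MAOA* (r = 0.85, 0.80 and 0.80), and *NQO1* to *RHBDD1*, *MYOC* and *SUSD4* (r = 0.78, 0.77 and 0.76). Among the members themselves, *GSTA4* and *20ALPHA-HSD* had r = 0.84 over 16 libraries and 0.65 over the 11. *GCLC* and *GCLM*, the subunits of the ligase, had r = 0.59 and 0.34, and *GSTP1* and *GCLM* had r = -0.77 and -0.63.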

How the data were processed

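Polyadenylated RNA of rumen papillae was read as single reads of 50 bases, 1 library per steer. The submitters' processing notes name TopHat2 2.08b and the build UMD3.1. Which tool made the coverage values is not given in the sources used here. As read from the values, the deposited signal is average coverage per base multiplied by a library factor. The authors also deposited a fold (ratio), its log2 value and a p-value per region, which were not used. No read counts were used, so depth per region is an estimate. Labels give no replicate numbers, so animals were numbered in accession order.

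Each gene took the level of its exon region with the highest mean over 16 libraries. Regions that join exons of several genes (523) were dropped. Of 12012 genes, 9447 had at least 0.5 in at least 4 libraries. Levels as log2(value + 0.1) were fitted with limma 3.58.1 in R 4.3.3 (trend and robust) on 4 group means, two-sided, with Benjamini-Hochberg adjustment over all genes at 0.05. The pipeline was tested on simulated data. P-values measure the spread between single libraries of different animals. Fold changes on the log2(value + 0.1) scale understate changes of low genes. The first-exon index used genes with at least 6 exons and a level of at least 5. The members and the gene lists were chosen with earlier results of these data known. Genes named beside the members are the 2 with the highest mean level in each list, close relatives and regulators of the members, list genes at an unadjusted p under 0.05, and the 3 most correlated genes per member, of which 1 is not reported here; relatives, regulators and the genes at an unadjusted p were named outside the rule set for named genes. Promoter, protein and genome sequences were not used here. Alternatives are given in the closing section.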

Additional observations from a re-analysis of the deposited data

Results flagged for a closer look

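Of 32 sets of 4 libraries examined (8 genes in 4 groups), 1 held a library far from the others by Dixon's test, at a level where chance marks about 1 in 20. *GSTA4* was at 19.41 in steer 4 with high gain and high intake, while the other 3 of that group were at 6.89 to 8.60, a gap of 0.863 of the group's range (critical value 0.829). This library is one of the 5 with low first-exon coverage and had 15.1 M estimated reads, within the range of the rest. It also held the highest *20ALPHA-HSD* (13.6), *GSTM3* (40.4) and *GCLM* (6.77) levels of its group and the lowest *GSTP1* level (0.61). Its part in the *GSTA4* value was not tested. Without it the intake difference of *GSTA4* was -1.16, against -1.0 with it.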

How the results depend on the processing

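No paired analysis was possible because animals of different groups share no number in the labels. Across 27 alternatives (pseudocounts, filters, other exon regions, rescaling, limma options, the 5 libraries left out, the index as covariate, each library left out), the intake sign held in all 27 for 7 genes, and in 26 for *GSTP1* (-0.38 with the covariate; 0.16 without the 5 libraries in this fit over group means, though the 7 high intake and 4 low intake libraries compared directly gave -0.25). *GSTA4* spanned -1.16 to -0.76, *NQO1* -1.21 to -0.80, *20ALPHA-HSD* -1.24 to -0.52 and *CTH* -1.34 to -0.21. *GCLC* spanned -0.70 to -0.39, *GSTM3* -0.54 to -0.17 and *GCLM* -0.49 to -0.01. For *GCLM* the smallest value came with the covariate and kept little more than its sign. With the covariate, *GSTP1* turned to 2.02 for high gain, low intake against low gain, high intake, and *GCLM* to -0.52. Genes past the adjusted threshold for gain numbered 0, but 58 without the 5 libraries and 918 with the covariate (797 higher, 121 lower), and 0 to 58 with 1 library left out (58 without low gain, low intake steer 3). For intake they numbered 2 with the mean over all exon regions, and 0 to 1 with 1 library left out. For high gain, low intake against low gain, high intake they numbered 2 without the 5, 2 with the covariate, and 0 to 1 with 1 library left out. Pathway genes at an unadjusted p under 0.05 for gain numbered 8, but 4 with pseudocount 0.01, 16 without the 5, 46 with the covariate and 3 to 38 with 1 library left out (38 without low gain, low intake steer 3). For intake they numbered 18, and 10 to 39 with 1 library left out (39 without high gain, high intake steer 4). Among all 9447 tested genes, those at an unadjusted p under 0.05 for gain (limma) numbered 500. They numbered 368 with pseudocount 0.01, 2638 with the covariate and 2958 without low gain, low intake steer 3. For intake they numbered 783, and 2367 without high gain, high intake steer 4. In these settings the pathway counts thus moved in the same direction as those of all tested genes. The cause was not tested. Median-of-ratios rescaling moved the median of all genes to 0.11 for intake and turned the split at an unadjusted p to 377 higher and 390 lower, from 233 and 550. Rescaling outside the mitochondrial genome gave 996 higher and 725 lower for high gain, low intake against low gain, high intake, against 388 and 884, and 272 higher and 321 lower for gain, against 92 and 408. *CTH* is limited most by depth.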
